A study of Mus musculus with 8 samples.

Results

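Amino acid transporters were examined as 10 genes of the solute carrier families in SN4741 cells, a clonal mouse neural precursor line in which the tyrosine hydroxylase promoter drives a temperature-sensitive SV40 T antigen. The genes were taken by symbol (Slc7a1, Slc7a3, Slc7a5, Slc3a2, Slc1a4, Slc1a5, Slc38a1, Slc38a2, Slc38a4 and Slc6a9), and all 10 were found once among the 31053 genes counted. The study made 4 single-cell libraries of cells labelled wild type at the permissive temperature (37 °C, 10% serum) and 4 of cells moved to the non-permissive temperature (39 °C, 0.5% serum) for 48 hours. Temperature and serum changed together, so their effects cannot be told apart, and every comparison of 39 °C with 37 °C below includes both. All cells come from 1 polyploid line that carries the T antigen at both temperatures.

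Cells cannot pass most amino acids through a lipid membrane and rely on transporters to take them up and exchange them. Solute carrier family 7 holds the cationic amino acid carriers and the light chains of heteromeric exchangers, which reach the cell surface only when joined to a heavy chain such as that encoded by Slc3a2. Families 1 and 38 hold exchangers and sodium-coupled carriers of small neutral amino acids and glutamine, and family 6 includes carriers of glycine and neurotransmitters. In many cells, transporter genes are under the control of the transcription factor ATF4, which is made when amino acids are short and binds a composite element whose core is read here as TGATGNAA.

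The limits of the study's methods on genes and mitochondrial counts per cell left 18351 of 19125 cells, of which 8550 came from the 37 °C libraries and 9801 from the 39 °C libraries. A library held 17166686 to 29633818 UMIs (counted transcript molecules) in these cells. Replicate 1 at 39 °C stood apart, with 985 kept cells against 2579 to 3494 in the other libraries of its temperature, and results that it or another library decides are given with and without it. At most 5 barcodes were shared by any pair of libraries. Cells assigned to G1 made up 20.6 to 28.7% of each library at 37 °C and 82.5 to 85.4% at 39 °C. Values over all cells thus mix phases in shares that differ between the temperatures, and values within phases are given beside them. Of markers of the labelled neural precursor type, Vim was present at 5396 ± 122 and 5166 ± 216 CPM (counts per 1000000 counts of the library, SD, n = 4 libraries), Nes fell from 467 ± 54 to 108 ± 6.4 CPM, Sox2 rose from 55.4 ± 2.2 to 76.5 ± 3.2 CPM, and Sox1 and Pax6 were at or near 0. Sox9, the last of these 6 markers, rose by 1.29 on the log2 scale. Markers of mesenchymal cells were present, with a summed level of 1996 to 2061 CPM at 37 °C and 836 to 874 CPM at 39 °C, and all 5 that were tested fell. Those of neurons summed to 163 to 197 and 77.2 to 97.5 CPM with Dcx at 0, and those of glia and of blood or endothelium stayed below 10 CPM in every library. Whether the change of these markers has a part in the results was not tested.

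Promoter sequences were shown to place the genes that rose beside those that fell and to look for the ATF4 element near their starts. RefSeq (GRCm38.p6) gave a window of 300 bases, from 250 before to 50 after the start, for 6 of the 10 genes (Slc7a1, Slc3a2, Slc1a4, Slc38a2, Slc38a4 and Slc6a9). The windows printed belong to Slc1a4 (chr11:20332664-20332963) and Slc3a2 (chr19:8713848-8714147), whose levels rose, and to Slc38a2 (chr15:96699679-96699978) and Slc38a4 (the first of 3 starts, chr15:97055907-97056206), whose levels fell. All 4 lie on the minus strand and are written 5′ to 3′ along the gene, with a match to TGATGNAA on either strand in capitals.
Slc1a4: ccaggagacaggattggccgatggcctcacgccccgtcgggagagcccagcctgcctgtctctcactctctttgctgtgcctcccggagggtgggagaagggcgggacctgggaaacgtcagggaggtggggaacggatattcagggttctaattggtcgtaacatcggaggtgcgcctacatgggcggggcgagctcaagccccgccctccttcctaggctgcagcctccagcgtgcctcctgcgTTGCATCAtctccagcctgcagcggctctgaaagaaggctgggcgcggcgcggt
Slc3a2: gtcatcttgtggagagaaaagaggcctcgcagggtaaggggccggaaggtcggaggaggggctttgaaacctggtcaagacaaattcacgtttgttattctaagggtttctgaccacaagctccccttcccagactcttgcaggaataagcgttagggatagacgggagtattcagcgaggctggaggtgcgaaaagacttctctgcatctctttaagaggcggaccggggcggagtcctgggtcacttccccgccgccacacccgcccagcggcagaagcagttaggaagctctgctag
Slc38a2: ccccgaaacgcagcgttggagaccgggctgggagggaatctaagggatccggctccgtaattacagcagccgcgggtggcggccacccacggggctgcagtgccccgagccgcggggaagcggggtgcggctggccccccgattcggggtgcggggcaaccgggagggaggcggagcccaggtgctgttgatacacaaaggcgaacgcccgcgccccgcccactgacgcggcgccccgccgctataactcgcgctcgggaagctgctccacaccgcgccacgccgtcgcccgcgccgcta
Slc38a4: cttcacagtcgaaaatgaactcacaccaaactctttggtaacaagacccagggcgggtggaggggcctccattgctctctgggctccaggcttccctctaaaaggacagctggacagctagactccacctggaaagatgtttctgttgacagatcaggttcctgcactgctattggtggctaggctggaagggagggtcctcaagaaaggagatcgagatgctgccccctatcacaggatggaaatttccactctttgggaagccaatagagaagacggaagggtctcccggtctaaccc
The Slc1a4 window held TGATGNAA once, on the strand opposite to the gene, at bases 247 to 254 and thus across the start itself. No window of the other 5 genes held it. Among all 32851 RefSeq windows of this length, 3.97% held the motif. The E-box CACGTG, searched because MYC family factors bind it, was in none of the windows of the 6 genes and in 7.15% of all windows. These letters do not show binding, and their absence from a window says nothing of the factor.

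The genes lie on 8 chromosomes (GRCm38, GENCODE M21). Those of family 38 are neighbours on chromosome 15, with Slc38a1 at 96571418 to 96642913, Slc38a2 at 96687392 to 96699730 and Slc38a4 at 96994820 to 97055956, all on the minus strand. Slc7a5 (chromosome 8, 121881150 to 121907694, minus strand) overlaps Gm20388 on the other strand, and Slc6a9 (chromosome 4, 117834506 to 117875198, plus strand) overlaps Ccdc24, B4galt2 and Gm17114 on the other strand. Whether counting used the strand is not given in the sources used here, so reads of these overlapping genes may not be told apart.

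Levels of the 10 genes were ordered first. Because each transcript end is counted once by its UMI, CPM need no division by gene length. Capture and mapping may still differ between genes, which was not tested, so the order is that of counts. At 37 °C Slc3a2 (156.5 ± 5.5 CPM, SD, n = 4) was the most abundant, then Slc38a2 (115 ± 4.9), Slc1a4 (49.3 ± 5.3), Slc7a1 (30.3 ± 1.5), Slc1a5 (12.4 ± 1.0), Slc6a9 (9.27 ± 0.43), Slc7a5 (7.94 ± 1.0), Slc38a4 (4.34 ± 0.35), Slc38a1 (2.01 ± 0.23) and Slc7a3 (0.268 ± 0.088). In this order Slc6a9 and Slc7a5 were the only neighbours whose libraries overlapped. At 39 °C Slc1a4 (102 ± 4.1 CPM) moved beside Slc38a2 (97.8 ± 4.5), and the libraries of this pair overlapped, as did those of the lowest pair, Slc7a3 and Slc38a1. Summed CPM of the 10 genes were 382 to 392 per library at 37 °C and 479 to 503 at 39 °C, without overlap. Slc3a2, Slc38a2 and Slc1a4 together gave 81.9 to 83.9% of that sum at 37 °C and 89.0 to 89.6% at 39 °C.

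**Figure D1:**
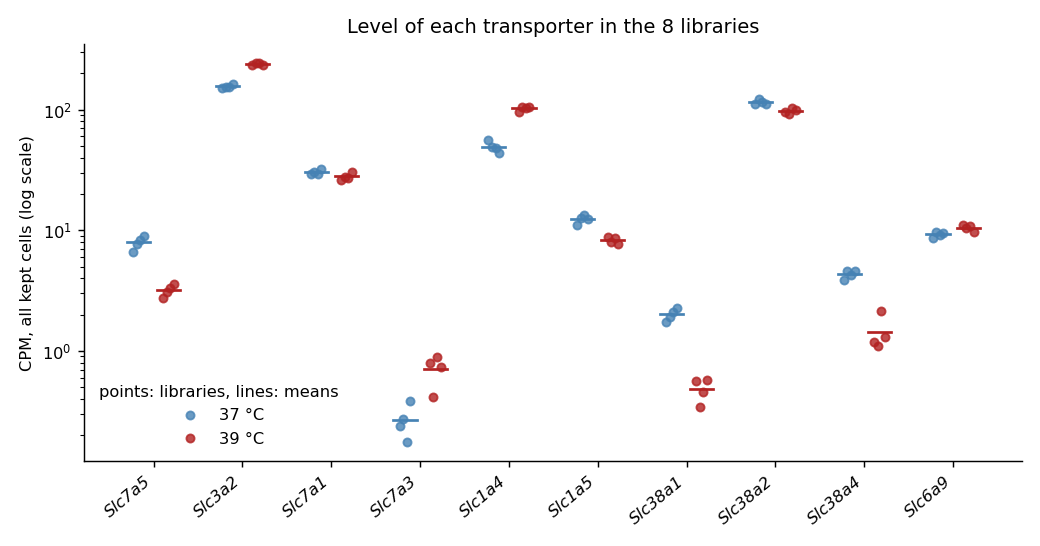
CPM over all kept cells (vertical axis, log scale) of the 10 transporter genes (horizontal axis), 1 point a library and a line at each mean of 4, blue at 37 °C and red at 39 °C. The libraries separate by temperature for every gene but Slc7a1, with Slc3a2 and Slc1a4 higher and Slc7a5, Slc38a1 and Slc38a4 lower at 39 °C.

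The first question was which transporters differ between the temperatures over all cells. Of the 10 genes, 9 passed the test (adjusted p under 0.05, edgeR quasi-likelihood test on summed counts), 4 of them higher at 39 °C and 5 lower. This test called 62.0% of all 15810 genes, 31.5% higher and 30.5% lower, so passing was common among expressed genes. Only Slc38a1 and Slc38a4, both lower, passed the limits for a large change (adjusted p under 0.01 and over 1.5 on the log2 scale), which 5.83% of all genes did (2.21% higher and 3.62% lower). The libraries of 9 genes did not overlap between temperatures, as for 56.7% of all genes. The median log2 fold change was −0.18 over the 10 genes and 0.02 over all genes tested.

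Transcripts for the chains of the large neutral amino acid exchanger moved in opposite directions. Slc3a2 encodes CD98, the heavy chain, which is also a partner of other light chains and of integrins. Its level was 152, 154, 155 and 165 CPM in the 37 °C libraries and 235, 244, 243 and 234 CPM in the 39 °C libraries. All libraries at 39 °C were above all at 37 °C, and the level rose by 0.61 ± 0.045 on the log2 scale (SE; edgeR adjusted p = 6.60e-10). Slc7a5 encodes LAT1, the light chain that carries leucine and other large neutral amino acids. It was measured at 6.65, 7.75, 8.34 and 9.02 CPM at 37 °C and at 2.72, 3.07, 3.33 and 3.62 CPM at 39 °C. Every library at 39 °C was below every library at 37 °C, a mean 2.49 times lower, and the level fell by 1.30 on the log2 scale (SE 0.11; edgeR adjusted p = 5.21e-09).

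Set against each other within each library, Slc3a2 gave 22.9, 19.9, 18.6 and 18.2 UMIs per Slc7a5 UMI at 37 °C and 86.1, 79.6, 73.1 and 64.5 at 39 °C. The ratio needs no scaling between libraries, and all 4 values at 39 °C were above those at 37 °C, by 1.93 on the log2 scale (exact permutation test over 70 assignments of libraries, two-sided p = 0.0286, the smallest that 4 against 4 allows). In G1 cells alone the difference was 1.27, with 27.6 to 51.4 UMIs at 37 °C and 79.8 to 93.8 at 39 °C, and in S and G2M cells it was 1.29. The ratio thus separated by temperature within both sets of cells, by less within a set than over all cells, a contrast that was not itself tested. The counts behind it were small for the light chain, with 194 to 257 Slc7a5 UMIs per library at 37 °C and 48 to 94 at 39 °C over all cells. They were smallest in G1 cells at 37 °C, at 19 to 35, and in S and G2M cells at 39 °C, at 10 to 31.

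**Figure D2:**
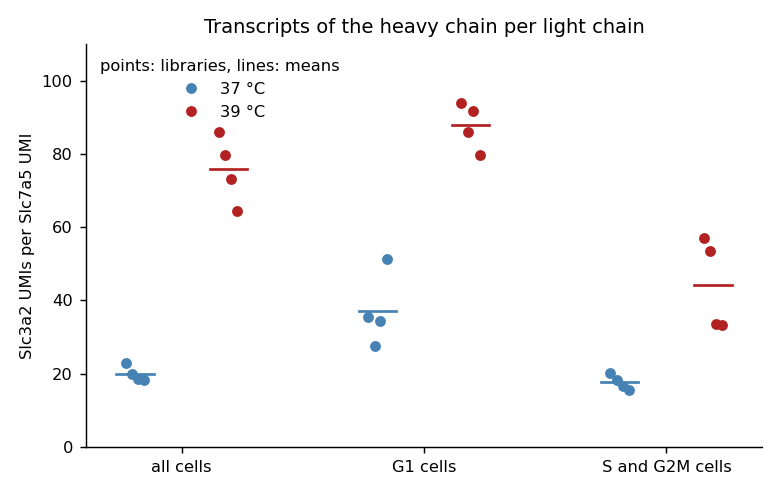
Slc3a2 UMIs per Slc7a5 UMI (vertical axis) over all cells, G1 cells and S and G2M cells (horizontal axis), 1 point a library and a line at each mean of 4, blue at 37 °C and red at 39 °C. The libraries do not overlap between temperatures in any of the 3 sets, with 18.2 to 22.9 against 64.5 to 86.1 over all cells.

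The cationic amino acid carriers did not move together. Slc7a1 encodes CAT1, the widely expressed carrier of arginine and lysine. Its level was 29.4, 30.3, 29.1 and 32.3 CPM at 37 °C and 26.2, 27.9, 27.3 and 30.4 CPM at 39 °C. The ranges overlapped, and the log2 fold change of −0.11 ± 0.055 (SE) did not pass (edgeR adjusted p = 0.0804). This call was close to the threshold and passed with median-ratio scaling, with other limits on cells, with equal numbers of cells per library, and without replicate 1 at 37 °C or replicate 4 at 39 °C, with log2 fold changes of −0.13 to −0.16. Slc7a3 encodes CAT3, a cationic carrier found mainly in brain. It was counted 7, 7, 5 and 11 times at 37 °C and 14, 11, 25 and 19 times at 39 °C, or 0.175 to 0.386 and 0.416 to 0.885 CPM. Its libraries did not overlap and the level rose by 1.38 ± 0.33 (edgeR adjusted p = 0.00117), at counts where few molecules decide each value.

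In family 1, the gene for the alanine, serine, cysteine and threonine exchanger ASCT1 rose and that for the glutamine exchanger ASCT2 fell. Slc1a4 (ASCT1) was at 56.4, 48.8, 48.2 and 43.7 CPM at 37 °C and at 96.4, 105, 103 and 105 CPM at 39 °C. The mean was 2.08 times higher at 39 °C, with no overlap, and the log2 fold change was 1.06 ± 0.062 (edgeR adjusted p = 1.84e-11). Slc1a5 (ASCT2) was at 11.0, 12.8, 13.4 and 12.4 CPM at 37 °C and at 8.74, 8.03, 8.60 and 7.63 CPM at 39 °C. It fell by 0.59 on the log2 scale (SE 0.077; edgeR adjusted p = 1.50e-06), and again the libraries did not overlap.

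The 3 sodium-coupled carriers of family 38 among the 10 genes fell, by very different sizes. Slc38a2, which encodes SNAT2, a carrier of alanine and glutamine known to be induced when amino acids are short, was at 112, 122, 116 and 111 CPM at 37 °C and at 96.5, 92.2, 103 and 99.8 CPM at 39 °C. It fell by 0.24 on the log2 scale (SE 0.048; edgeR adjusted p = 2.74e-04), the smallest change among the 5 genes that fell. Slc38a4, which encodes SNAT4 and is an imprinted gene, was at 3.87, 4.61, 4.28 and 4.60 CPM at 37 °C and at 1.19, 1.10, 2.16 and 1.31 CPM at 39 °C. Its mean was 3.01 times lower at 39 °C (log2 fold change −1.56 ± 0.16, edgeR adjusted p = 7.84e-08), with replicate 3 the highest library of its temperature. Slc38a1, which encodes SNAT1, a glutamine carrier of neurons, was at 1.75, 1.90, 2.10 and 2.28 CPM at 37 °C and at 0.567, 0.341, 0.460 and 0.578 CPM at 39 °C. It had the largest log2 fold change of the 10 genes, −2.06 ± 0.20 (edgeR adjusted p = 3.68e-08), and rested on 49 to 65 UMIs per library at 37 °C and 9 to 15 at 39 °C.

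Slc6a9 encodes GLYT1, the glycine transporter of glia and other cells. Over all cells it was at 8.71, 9.65, 9.18 and 9.55 CPM at 37 °C and at 11.1, 10.4, 10.8 and 9.68 CPM at 39 °C. The libraries touched but did not overlap, and the log2 fold change of 0.17 ± 0.070 passed (edgeR adjusted p = 0.0365). This call was not stable. It was lost with median-ratio scaling, with no filter on low counts, with DESeq2 (adjusted p = 0.138), and without replicates 1 or 3 at 37 °C or 1, 2 or 3 at 39 °C, where edgeR gave adjusted p-values of 0.0655 to 0.144.

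The next question was whether these differences hold among cells of like cell cycle phase. In G1 cells (1 set of genes scored for S and 1 for G2M, and the rest G1), 9 of the 10 genes passed, 4 higher at 39 °C and 5 lower, where 47.1% of 14712 genes passed (24.8% higher, 22.4% lower). The libraries of 8 of the 10 genes did not overlap between temperatures, as for 44.0% of all genes. Slc3a2 rose by 0.51 ± 0.050 and Slc1a4 by 0.49 ± 0.072 on the log2 scale. Slc7a1, which had not passed over all cells, was at 20.6, 21.2, 21.5 and 25.4 CPM in G1 cells at 37 °C and at 24.4, 26.9, 27.0 and 28.5 CPM at 39 °C. It rose by 0.28 ± 0.079 (edgeR adjusted p = 0.00538) although replicate 4 at 37 °C lay within the range of 39 °C. With phases scored in each library on its own this call was lost (0.03, edgeR adjusted p = 0.793). Slc6a9 rose by 0.35 ± 0.10 (edgeR adjusted p = 0.00824), while Slc7a3 did not pass (0.87 ± 0.47, edgeR adjusted p = 0.143) except with phases scored per library (1.04, edgeR adjusted p = 0.0342).

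Of the genes lower in G1 cells at 39 °C, Slc38a1 (−1.79 ± 0.36) and Slc38a4 (−1.51 ± 0.24) kept log2 fold changes past the limit for a large change. In these cells Slc38a1 rested on 6 to 12 UMIs per library at 37 °C and 6 to 11 at 39 °C. The light chain gene Slc7a5 was at 3.47 to 6.14 CPM at 37 °C and 2.55 to 2.96 CPM at 39 °C in G1 cells, a log2 fold change of −0.78 ± 0.18. Slc38a2 (−0.17 ± 0.051) and Slc1a5 (−0.32 ± 0.11, edgeR adjusted p = 0.0225) fell by less. Slc1a5 lost its call without replicate 3 at 37 °C (edgeR adjusted p = 0.104) and without replicates 2 or 4 at 39 °C (0.0525 and 0.0566).

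In S and G2M cells, 8 of the 10 genes passed, 2 higher and 6 lower, where 44.3% of 14760 genes passed, 20.6% higher and 23.8% lower. The libraries of 8 genes did not overlap, as for 42.4% of all genes. With library totals as the only scaling that split was 25.9% higher and 18.0% lower, while 8 or 9 of the 10 genes passed under every scaling tried. Slc3a2 (0.57 ± 0.056) and Slc1a4 (0.63 ± 0.074) rose, as in G1 cells. Slc38a4 (−1.58 ± 0.26), Slc38a1 (−1.33 ± 0.35), Slc1a5 (−0.66 ± 0.13), Slc7a5 (−0.62 ± 0.19), Slc6a9 (−0.58 ± 0.15) and Slc38a2 (−0.35 ± 0.063) fell. This set held only 144 to 610 cells per library at 39 °C, where Slc38a4 rested on 2 to 7 UMIs and Slc38a1 on 3 or 4. Slc7a5 lost its call without replicate 2 at 39 °C (−0.49, edgeR adjusted p = 0.0524). Slc7a1 (0.15 ± 0.082, edgeR adjusted p = 0.149) and Slc7a3 (0.77 ± 0.70, 1 or 2 UMIs per library at 39 °C) did not pass. Slc7a1 passed with library totals only or without replicate 3 at 39 °C, and Slc7a3 with phases scored per library (1.51, edgeR adjusted p = 0.0217).

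For Slc7a5 and Slc1a4 the difference over all cells was thus larger than within either set, −1.30 against −0.78 and −0.62 for Slc7a5, and 1.06 against 0.49 and 0.63 for Slc1a4. With phases scored in each library on its own, Slc7a5 changed by −1.14 in G1 cells and −1.13 in S and G2M cells. Slc1a4 then changed by 0.83 and 1.05, so the size of this gap depended on how phases were scored. Slc38a1 (−2.06 against −1.79 and −1.33) and Slc7a3 (1.38 against 0.87 and 0.77), both at low counts, were also farther from 0 over all cells. For Slc3a2, with 0.61 against 0.51 and 0.57, and for Slc38a4, with −1.56 against −1.51 and −1.58, the values lay close together. These contrasts between sets of cells that share cells were not tested.

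**Figure D3:**
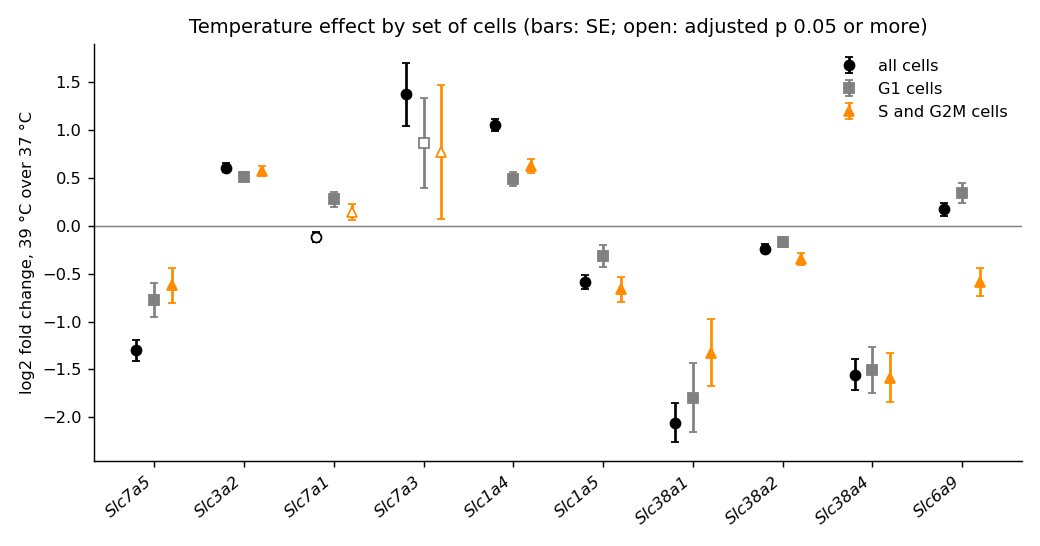
Log2 fold change of 39 °C over 37 °C (vertical axis) for each transporter gene (horizontal axis) in all cells (circles), G1 cells (squares) and S and G2M cells (triangles), with bars of 1 SE and open symbols where the edgeR adjusted p was 0.05 or more. Slc6a9 lies at 0.35 in G1 cells and −0.58 in S and G2M cells. With phases scored over all libraries together, Slc7a5, Slc1a4, Slc3a2, Slc38a1 and Slc7a3 lie farther from 0 over all cells than in either set.

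The phases were then compared directly within libraries, as log2 CPM of S and G2M cells minus that of G1 cells, with limma across all 14294 genes. At 37 °C, 5 of the 10 genes passed, where 39.7% of all genes did (23.3% higher in S and G2M cells, 16.4% lower). The family 7 genes Slc7a1 and Slc7a5 were higher in S and G2M cells, Slc7a1 by 0.59 ± 0.075 and Slc7a5 by 0.90 ± 0.19 (limma adjusted p = 1.04e-07 and 3.08e-04). Slc1a5 was higher by 0.35 ± 0.12 (limma adjusted p = 0.0190), a call that was lost without replicates 1, 2 or 4 at 37 °C and with phases scored per library. Slc1a4 was lower in S and G2M cells, −0.89 ± 0.055 (limma adjusted p = 1.39e-14), and Slc3a2 was slightly lower, −0.13 ± 0.033. Slc7a3, the other cationic carrier, did not pass at 37 °C (−0.53 ± 0.38) or at 39 °C (−0.72 ± 0.38).

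At 39 °C, 6 of the 10 genes passed, where 43.2% of all genes did (19.7% higher, 23.5% lower). Slc7a1 (0.46 ± 0.075) and Slc7a5 (0.92 ± 0.19) were again higher in S and G2M cells and Slc1a4 (−0.78 ± 0.055) again lower. Slc38a1 was higher by 0.88 ± 0.30, on 3 or 4 UMIs per library in these cells, and lost its call without replicates 1 or 2 at 39 °C (limma adjusted p = 0.0513 and 0.0588) and with phases scored per library (0.41). Slc6a9 was lower by −0.88 ± 0.13 and Slc38a2 by −0.11 ± 0.039, the latter not passing without replicates 2 or 3 at 39 °C.

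The difference between phases itself changed with temperature for 2 genes, Slc6a9 and Slc38a2, where 14.8% of all genes passed this test (4.3% with a higher and 10.5% with a lower value in S and G2M cells). In G1 cells Slc6a9 was at 9.15, 8.74, 9.48 and 8.22 CPM at 37 °C and at 12.3, 11.3, 11.5 and 10.6 CPM at 39 °C. In S and G2M cells it was at 8.73, 10.0, 9.27 and 9.98 CPM at 37 °C and between 4.81 and 7.54 CPM at 39 °C. At 39 °C all libraries were higher in G1 cells and all lower in S and G2M cells than any library of that set at 37 °C, and the temperature effect differed by −0.98 ± 0.19 on the log2 scale between the sets (limma adjusted p = 3.82e-04). The value in S and G2M cells at 39 °C rested on 12 to 32 UMIs per library. With phases scored in each library on its own, where 38.1 to 42.5% of cells at 37 °C and 54.1 to 58.8% at 39 °C were G1, the difference between the sets was −0.42 (limma adjusted p = 0.0251), and the fall in S and G2M cells did not pass (−0.10, edgeR adjusted p = 0.406).

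For Slc38a2 the temperature effect differed by −0.19 ± 0.055 (limma adjusted p = 0.0154). It was at 110 to 114 CPM in G1 cells and 112 to 126 CPM in S and G2M cells at 37 °C, and at 94.7 to 105 and 83.8 to 97.1 CPM at 39 °C. This call was lost without replicate 2 or 3 at 37 °C or replicate 2 at 39 °C, with limma adjusted p-values of 0.0529 to 0.0684. For Slc7a5 (0.02 ± 0.27) and Slc1a4 (0.11 ± 0.077) the test of this difference did not pass.

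**Figure D4:**
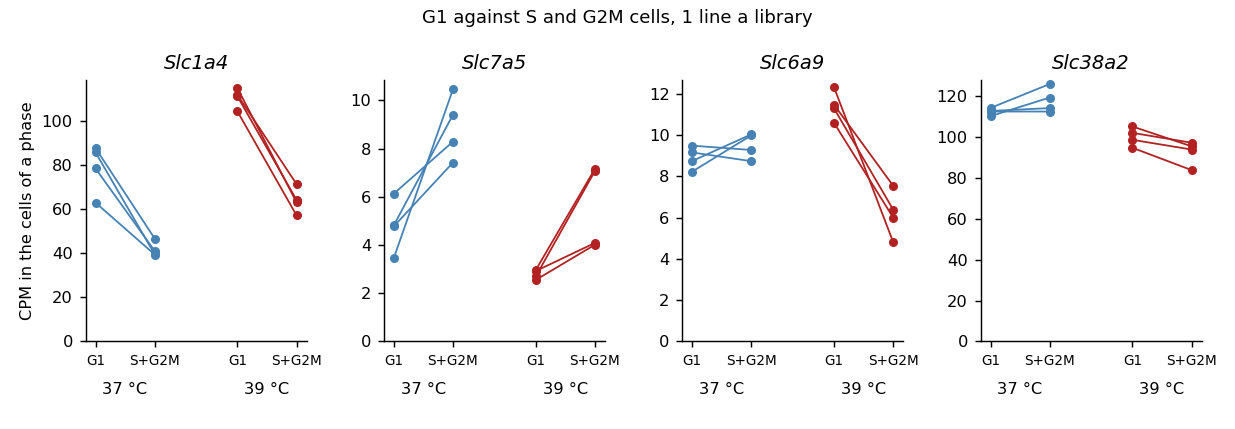
CPM in G1 cells and in S and G2M cells (vertical axes, each from 0) of Slc1a4, Slc7a5, Slc6a9 and Slc38a2, 1 line a library, blue at 37 °C and red at 39 °C. Slc1a4 falls and Slc7a5 rises from G1 to S and G2M cells in every library, and Slc6a9 falls in all 4 libraries at 39 °C, to 4.81 to 7.54 CPM.

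Across single cells, each cell was thinned to 5000 UMIs so that shares of cells with a UMI could be compared between depths, which left out 36 to 1009 cells per library. A line of 1 cell type holds no cells that should lack these genes, so no share could be set against a background of free RNA. Slc3a2 was found in 52.5% ± 0.96 of cells at 37 °C and 69.0% ± 1.9 at 39 °C (SD, n = 4), and Slc1a4 in 17.6 to 22.0% and 37.2 to 37.9% of cells per library. Slc38a2 was found in 41.5% ± 1.7 and 36.5% ± 1.4. Both genes that rose were thus seen in more cells, and Slc38a2 in fewer. Without thinning the libraries overlapped for Slc3a2 (means 80.0% and 83.6%) and for Slc38a2 (68.9% and 55.7%), and did not for Slc1a4 (39.8% and 55.6%).

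Of the rarer genes, Slc7a5 was found in 3.54% ± 0.66 of thinned cells at 37 °C and 1.63% ± 0.031 at 39 °C, Slc38a4 in 2.25% ± 0.26 and 0.772% ± 0.47, and Slc38a1 in 0.825% ± 0.13 and 0.251% ± 0.074. For these 3 genes and the 3 abundant ones the libraries did not overlap (exact permutation test, two-sided p = 0.0286 each, the smallest possible, 10 genes tested). Shares of cells were taken for the 10 genes alone, so how common such a lack of overlap is among all genes is not known. For Slc7a1 (13.9% and 12.9%), Slc1a5 (5.67% and 4.12%), Slc6a9 (4.81% and 5.46%) and Slc7a3 (0.202% and 0.386%) the libraries overlapped, with exact permutation p-values of 0.0571 to 0.171. Each of these overlaps ended when 1 library was left out. Without replicate 4 at 39 °C the Slc7a1 shares separated (mean difference −1.37 percentage points). Without replicate 2 at 39 °C those of Slc7a3 (0.27) and Slc6a9 (0.79) did. Slc6a9 shares also separated without replicate 2 at 37 °C (0.73), and Slc1a5 shares without replicate 1 at 39 °C. At 2000 UMIs per cell the libraries of Slc7a5 (1.19% and 0.711%) and Slc38a1 (0.269% and 0.0601%) also overlapped. In G1 cells alone the shares of Slc7a5 (1.80% and 1.34%), Slc38a1 (0.770% and 0.161%) and Slc38a2 (38.8% and 36.5%) overlapped between temperatures, and that of Slc7a1 was higher at 39 °C in every library (10.2% and 12.1%). In S and G2M cells the shares of Slc7a5 (4.04% and 3.14%), Slc38a1 (0.822% and 0.769%) and Slc38a2 (42.3% and 36.7%) overlapped as well. There Slc6a9 was found in 4.83% of cells at 37 °C and 2.81% at 39 °C, without overlap, the opposite order to its shares over all cells.

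**Figure D5:**
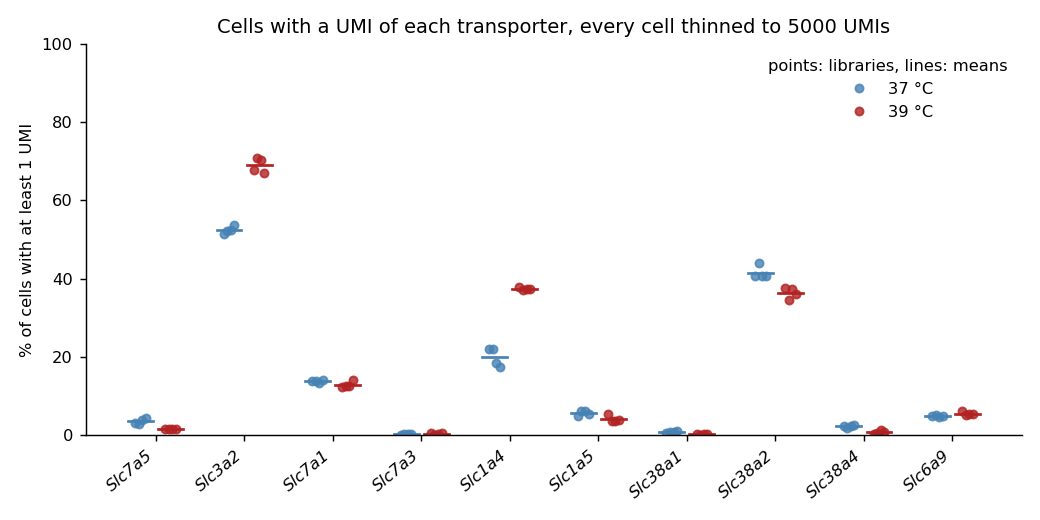
Percentage of cells with at least 1 UMI of each gene (vertical axis) after thinning every cell to 5000 UMIs, 1 point a library and a line at each mean of 4, blue at 37 °C and red at 39 °C. Slc3a2 rises from 52.5% to 69.0% and Slc1a4 from at most 22.0% to at least 37.2%, and Slc38a2 falls from 41.5% to 36.5%.

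A thinned cell held UMIs of 1.43 to 1.49 of the 10 genes on average at 37 °C and of 1.66 to 1.70 at 39 °C. No transporter was seen in 15.5 to 17.2% of cells at 37 °C and 9.76 to 11.4% at 39 °C. Across cells within a library the correlations between the genes were near 0. The 45 pairs had median correlations of −0.022 to 0.044 over the 8 libraries, and the chains Slc7a5 and Slc3a2 had a median of 0.013 (range −0.025 to 0.029). At these sparse counts such values are a description only, and they share the library and the fixed depth of the cells.

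Genes whose log2 CPM over the 8 libraries was most like that of Slc7a5, among those with a mean of at least 50 CPM, were Sod2, Acsl5, Lsm4, Srsf6 and Anp32b (Pearson's r 0.996 to 0.999). Those most like Slc3a2 were Plin2, Ehd4, Ecm1, Phlda3 and Ift27 (r 0.996 to 0.998). The 8 libraries fall into separate groups by temperature, so these values are a description with no p-value.

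The other genes of amino acid transport were counted from a list of 43, of which 28 could be tested over all cells. At 39 °C 11 rose and 6 fell, beside 31.5% and 30.5% of all genes, so the share that passed was near that of all genes. The median log2 fold change was 0.31 against 0.02 over all genes. Other carriers of family 38 were among those that rose, namely Slc38a6 (0.59), Slc38a7 (0.30), Slc38a8 and Slc38a9 (0.67), and Slc38a10 was among those that fell (−0.12), all named after their values were seen. Slc7a2, which encodes the cationic carrier CAT2, rose most among those with at least 20 CPM, from 13.3 ± 2.0 to 51.0 ± 2.9 CPM (SD, n = 4; log2 fold change 1.94 ± 0.076, edgeR adjusted p = 6.00e-14). At 39 °C it thus stood above Slc7a1 (27.9 CPM), which it was below at 37 °C. Chosen after their values were seen, the other large changes were those of Slc7a11, the cystine and glutamate exchanger (1.54 ± 0.20, from 2.21 to 6.30 CPM), of Slc38a8 (1 to 4 UMIs per library at 37 °C and 5 to 10 at 39 °C) and of Slc43a1 (4 to 6 UMIs and 0 to 2 UMIs). In G1 cells 24 of the list could be tested, and 6 rose and 3 fell where 24.8% and 22.4% of all genes did. There Slc7a2 rose by 0.94 ± 0.091.

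Genes of the ATF4 response mostly fell. Of 23 tested over all cells, 16 fell and 5 rose, where 30.5% of all genes fell and 31.5% rose, with a median log2 fold change of −0.59. Atf4 itself fell from 132 ± 9.3 to 98.7 ± 5.4 CPM (−0.42 ± 0.055, edgeR adjusted p = 1.75e-06). The largest changes were those of serine synthesis, 1-carbon metabolism and asparagine synthesis, with log2 fold changes of −3.13 for Phgdh, −2.81 for Mthfd2 and −2.73 for Psat1. Asns fell from 41.8 ± 4.0 to 14.7 ± 0.91 CPM. The genes of the list that rose were Atf3, Ddit3, Ddit4, Cebpb and Vldlr. In G1 cells 15 fell and 5 rose (22.4% and 24.8% of all genes), and in S and G2M cells 15 fell and 5 rose (23.8% and 20.6% of all genes). Among the 10 transporter genes, 4 rose and 5 fell in the same libraries. Those that rose include Slc3a2 and Slc1a4, and those that fell include Slc7a5 and Slc38a2. ATF4 protein was not measured, and whether ATF4 has a part in these changes was not tested. Of 20 genes of amino acid sensing, 9 rose and 3 fell over all cells, none by a large change, with a median of 0.13. The share of these genes that passed was near the 62.0% of all genes.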

How the data were processed

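Single-cell RNA-seq was measured in 8 libraries of SN4741 cells, grouped by the temperature in their labels. The deposited values are raw UMI counts per gene and cell, made by the authors with the 10x 3′ kit and Cell Ranger 3.0.1 on mm10. Following the study's methods, cells with over 15% mitochondrial counts, under 200 or over 6000 genes were removed (334, 29 and 440 cells). No doublet caller was run, and the upper limit on genes was the only step against doublets. Phases were assigned with Seurat 5.3.0 cell cycle scoring over all libraries, with 42 of 43 S and 52 of 54 G2M genes found.

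Counts were summed per library over all cells, G1 cells, or S and G2M cells. Genes averaging 1 or more counts in a library entered edgeR 4.0.16 (quasi-likelihood, TMM scaling, temperature as the only term), with Benjamini-Hochberg adjustment over all of them. CPM are per 1000000 counts of tested genes after TMM scaling. All 10 transporter genes passed this filter in each set of cells. Phase differences within libraries were tested with limma 3.58.1 on log2 CPM with a prior count of 2. Shares of cells and the chain ratio were tested by an exact permutation test over libraries (scipy 1.17.1). The scripts were tested on simulated data.

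Total counts per kept library were 17166686 to 29633818. They limit the precision of the rare genes, whose UMI counts are given. No pair of libraries was a copy, since chi-square per degree of freedom between libraries of 1 temperature was 2.85 to 21.4. The labels do not say whether libraries of 1 temperature came from separate cultures, so p-values measure the spread between these libraries, which may be technical. They also name no batch. The genes and the lists were chosen with earlier results of these data known. Of other lists, genes were named when past the large limit in all cells with at least 20 CPM in the higher group (up to 4), plus Atf4, and 5 genes were named for likeness to Slc7a5 and to Slc3a2. Alternatives were other scalings, filters on genes and cells, DESeq2 1.42.0, a replicate block, phases scored per library, equal numbers of cells, other depths of thinning and leaving out each library. Shares of cells and the chain ratio in S and G2M cells alone were added after seeing the data.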

Additional observations from a re-analysis of the deposited data

Results flagged for a closer look

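The temperature effect on Slc6a9 differed between S and G2M cells and G1 cells by −0.98 on the log2 scale (limma adjusted p = 3.82e-04), and that on Slc38a2 by −0.19 (limma adjusted p = 0.0154). Both were marked because the test of the difference itself passed. The cause was not tested.

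A few shares of thinned cells with a UMI were marked by Dixon's ratio, which sets the gap to the other libraries of a temperature against their range. These were the share with Slc38a2 in replicate 2 at 37 °C (44.1%), the share with Slc1a4 in replicate 1 at 39 °C (37.9%) and the share with Slc1a5 in replicate 1 at 39 °C (5.48%). For Slc1a4 the gap was small, since the other libraries at 39 °C were at 37.2 to 37.3%. Of 82 groups of 4 libraries examined in this way, chance would mark about 1 in 20. Leaving out replicate 1 at 39 °C, the Slc1a5 shares no longer overlapped between temperatures.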

How the results depend on the processing

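The number of the 10 genes that passed over all cells, in G1 cells and in S and G2M cells was 8 to 10, 8 to 9 and 7 to 9 over the alternatives run, against 9, 9 and 8 as reported. The number whose temperature effect differed between phases fell from 2 to 1 without replicate 2 or 3 at 37 °C or replicate 2 at 39 °C (range over libraries left out 1 to 2), since Slc38a2 lost its call there. With phases scored per library, Slc7a1 in S and G2M cells was −0.089, the 37 °C phase difference of Slc6a9 was −0.10, and neither passed, while Slc7a1 in G1 cells was 0.03 (edgeR adjusted p = 0.793), Slc7a3 passed in G1 cells (1.04) and in S and G2M cells (1.51), Slc1a5 lost its 37 °C phase difference and Slc38a1 its 39 °C one. The share of cells with Slc7a1 changed by 0.031 percentage points with 2000 UMIs per cell and by 1.94 in G1 and 2.10 in S and G2M cells, against −0.97 as reported, and that with Slc6a9 by −0.56 without thinning and −2.02 in S and G2M cells, against 0.65. The cause of these changes was not tested. The log2 difference of the chain ratio was 1.86 to 2.00 over libraries left out and 1.98 without the limits on cells.

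Deviations of same-numbered libraries from the means of their temperatures had correlations of −0.106, −0.082, −0.070 and 0.197. Those of other pairs ranged from −0.235 to 0.219. With so few libraries these values cannot settle whether the numbers pair them. With a replicate block, 9617 genes passed over all cells instead of 9803, and Slc6a9 (0.17, edgeR adjusted p = 0.0571) lost its call among the 10 genes. Depth limits Slc7a3 and Slc38a1 most, at 5 to 65 UMIs per library over all cells.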
